A study of Homo sapiens with 12 samples.

Results

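The metallothionein genes examined here are MT1A, MT1E, MT1F, MT1G, MT1M, MT1X and MT2A, 7 of the 33694 human genes listed in the count files. They were taken by symbol, and the set was chosen by measured values, the read counts of MT2A, which were far lower in A375 cells given dabrafenib than in A375 cells given solvent. The values of that contrast are therefore a description and carry no test. Of the 7 genes, 4 had at least 1 read in any library and 2, MT2A and MT1X, passed the filter on low counts. MT2A held 8024 of the reads over 10 libraries, MT1X 204, MT1F 24 and MT1A 13, while MT1E, MT1G and MT1M had none.

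The RNA came from a pair of melanoma lines profiled by 3′ tag sequencing, in which each read comes from near the polyadenylated end of a transcript. A375 is an established human melanoma line that carries an activating mutation of BRAF. A375-BIR is its counterpart that the labels call resistant to BRAF inhibitors. How the resistance was selected, and whether A375-BIR is 1 clone, is not given in the sources used here. All cells grew in RPMI with 10% FBS. The 4 groups were A375 with DMSO at 0.1%, A375 with dabrafenib at 200 nM, A375-BIR with DMSO at 0.1% and A375-BIR with dabrafenib at 200 nM. Dabrafenib, a BRAF kinase inhibitor, was given for 48 h. The labels name 3 biological replicates per group, 12 libraries in all. The files of A375 DMSO replicates 2 and 3 list mouse identifiers and entered no comparison, so that A375 DMSO is 1 library (n = 1). The name of that library's count file also carries a stamp different from the stamp shared by the other 9 libraries. The 2 files with mouse identifiers lack the shared stamp too. What the stamp marks is not given in the sources used here. In the A375 DMSO library 20.1% of reads were assigned to no gene feature, against 28.6% to 30.9% in the other 9. Wherever this library is compared, its stamp and its group cannot be told apart.

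Metallothioneins are small cysteine-rich proteins that bind zinc and copper and can take up cadmium. Their genes lie in a cluster on chromosome 16 and are switched on by the zinc-sensing transcription factor MTF1, which binds short metal response elements in their promoters. Glucocorticoids and oxidative stress are further known inducers. MT2A is the isoform gene most widely expressed across human tissues, and the MT1 genes encode closely related isoforms.

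On GRCh38 (GENCODE 29) all 7 genes are protein-coding. MT2A spans 56608199 to 56609497 of chromosome 16, MT1E 56625475 to 56627112, MT1M 56632233 to 56633986, MT1A 56638666 to 56640087, MT1F 56657694 to 56660698, and MT1X 56682424 to 56684196, all on the plus strand. MT1G lies on the minus strand at 56666731 to 56668065. The gene models of MT1X and AC026461.1 overlap, and the strand setting of the counting is not given in the sources used here.

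The RefSeq promoter table (GRCh38.p14) had entries for 2 of the 7 genes, the same 2 that passed the filter. The 250 bases before each RefSeq start are shown because these genes carried nearly all metallothionein reads and because the element through which MTF1 acts can be seen in them. The RefSeq starts lie inside the GENCODE spans given above. Capitals mark each match, on either strand, to the 7-base core of the metal response element, written TGCACNC or TGCGCNC.
MT2A, chr16:56608334-56608583, plus strand: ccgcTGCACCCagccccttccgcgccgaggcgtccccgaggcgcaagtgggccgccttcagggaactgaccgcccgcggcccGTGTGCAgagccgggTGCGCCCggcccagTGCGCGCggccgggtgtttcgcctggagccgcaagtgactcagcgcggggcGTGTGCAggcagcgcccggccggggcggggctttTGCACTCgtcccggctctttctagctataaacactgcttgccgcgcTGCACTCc
MT1X, chr16:56682220-56682469, plus strand: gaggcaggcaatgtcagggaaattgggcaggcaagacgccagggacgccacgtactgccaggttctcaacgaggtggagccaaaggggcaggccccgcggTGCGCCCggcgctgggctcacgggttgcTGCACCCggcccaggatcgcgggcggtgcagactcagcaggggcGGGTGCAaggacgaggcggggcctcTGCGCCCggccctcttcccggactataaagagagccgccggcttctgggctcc
The MT2A window held 7 such cores, the one nearest the start ending 2 bases before it. The MT1X window held 4, the nearest ending 47 bases before the start. No core overlapped another. Of 35116 RefSeq promoter windows of this length, 24.8% held at least 1 core, 0.370% at least 4 and 0.0313% at least 7. Both windows were rich in G and C, at 73.2% and 70%. Among metallothionein genes outside the set, the MT1H window held 8 cores and the MT1B and MT4 windows 3 each. A match describes the letters and does not show that a factor binds there.

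Levels below are read counts scaled to TMM-adjusted library totals (CPM). Because 3′ tags are not spread along a transcript, the values were not divided by gene length, and levels are compared between libraries for 1 gene at a time. Total gene counts ran from 198690 to 1999840 per library with a median of 570083. The A375 DMSO library had the lowest TMM factor, 0.81, against 0.90 to 1.10 in the other libraries. In bulk RNA, fewer expressing cells and less RNA per cell cannot be told apart, and this holds for every value that follows.

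MT2A was an abundant transcript in 3 of the 4 groups and had 27 reads over 3 libraries in the remaining one, A375 with dabrafenib. The A375 DMSO library held 2613 MT2A reads, or 1641 CPM. The A375 dabrafenib libraries held 10, 10 and 7 reads, or 20.6, 22.3 and 39.5 CPM (27.5 ± 10.4 CPM, SD, n = 3). In A375-BIR with DMSO the libraries stood at 1245, 1271 and 1556 CPM (1357 ± 172 CPM, SD, n = 3), and with dabrafenib at 853, 1011 and 675 CPM (847 ± 168 CPM, SD, n = 3). The A375 dabrafenib libraries lay far below all 7 others, with no overlap. The A375-BIR groups did not overlap either, the lowest DMSO library standing above the highest dabrafenib library. For this and every other separation of groups given here, the share of all genes tested that separate likewise was not counted. From high to low the group order was A375 DMSO, A375-BIR DMSO, A375-BIR dabrafenib and A375 dabrafenib. The first pair in that order is not separated by a spread, since A375 DMSO has 1 library and lies 1.24-fold above A375-BIR DMSO by pooled counts.

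**Figure D1:**
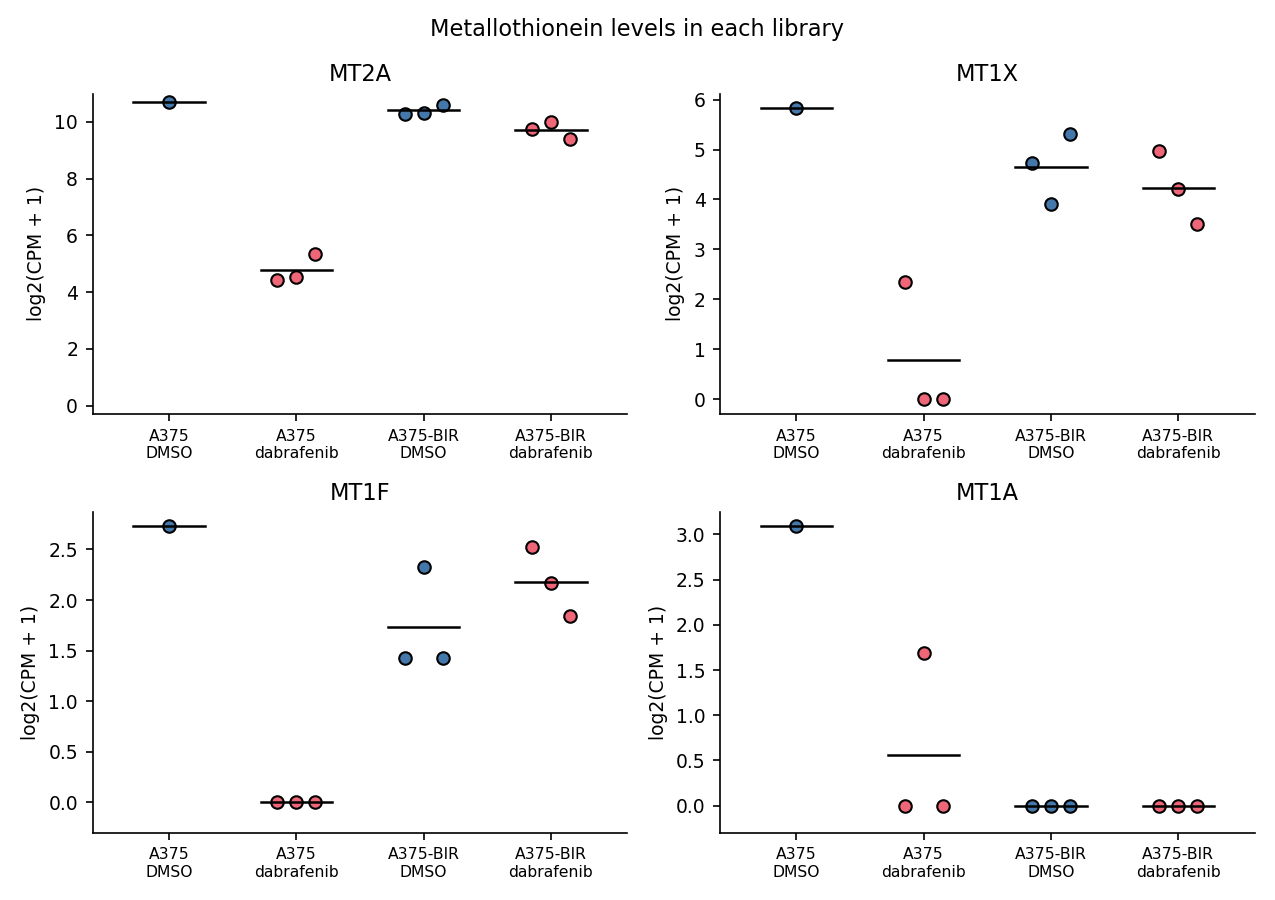
MT2A, MT1X, MT1F and MT1A in each of the 10 libraries (points: DMSO blue, dabrafenib red), as log2(CPM + 1) by group, each panel with its own vertical scale. The line is the mean of the plotted values and a library with no read is at 0. MT2A lies between 20.6 and 39.5 CPM in the A375 dabrafenib libraries, and 12 of the 13 MT1A reads are in the A375 DMSO library.

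Ranked by read count within each library, MT2A was between the 41st and the 51st gene in A375-BIR with DMSO, between the 81st and the 137th in A375-BIR with dabrafenib and the 59th in A375 DMSO. In A375 with dabrafenib it ranked between 4505 and 7007. The 7 genes together took 0.136% to 0.163% of gene counts in A375-BIR with DMSO and 0.0680% to 0.105% with dabrafenib. They took 0.136% in A375 DMSO and 0.00237% to 0.00352% in A375 with dabrafenib. The family's summed level followed MT2A in every group, since MT2A made up most of it.

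In A375, the contrast that chose the set, the pooled MT2A level was 67.5-fold higher in the DMSO library than in the dabrafenib libraries (95% counting interval 46.3 to 102.6). The fitted change with dabrafenib was -6.05 on the log2 scale, the 8th lowest of 10236 genes tested. That fit called 38.6% of all genes tested. With 1 DMSO library of another stamp, the size of the change includes any difference that goes with the stamp. The set has no threshold of its own, and MT1X, the other gene tested, had a fitted change of -4.83, the 27th lowest. For MT1X this value rests on the 2 reads of A375 dabrafenib replicate 1. Without that library the group has no read and the fitted value, then no bound, was -8.44.

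In A375-BIR, whose libraries played no part in choosing the genes and shared 1 stamp, MT2A fell with dabrafenib. The change was -0.67 ± 0.18 (log2, SE) with an adjusted p of 0.027 by edgeR's quasi-likelihood test. MT2A was lower in 3 of 3 dabrafenib libraries than in any DMSO library, a separation whose share over all genes was not counted. Pooled counts gave a 1.53-fold higher level with DMSO (95% counting interval 1.44 to 1.62). This comparison called 252 genes, 2.46% of those tested, and MT2A had the 481st lowest fitted change of all genes tested. The call ended when any 1 of DMSO replicates 1, 2 and 3 (-0.74, -0.72 and -0.57) or dabrafenib replicates 1 and 3 (-0.68 and -0.54) was left out, while the direction held. It also ended with only the 2 groups in the fit (-0.66, adjusted p = 0.108), with counts thinned to the smallest library (-0.63, adjusted p = 0.0892) and with a mean count of at least 50 (-0.64, adjusted p = 0.0584), all by edgeR. The library with the lowest MT2A in A375-BIR, dabrafenib replicate 3, also had the lowest share of its reads on genes, 20.4%. Of its reads 49.4% had more than 1 alignment, the highest share among libraries of the shared stamp. The part of these values in the result was not tested.

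**Figure D2:**
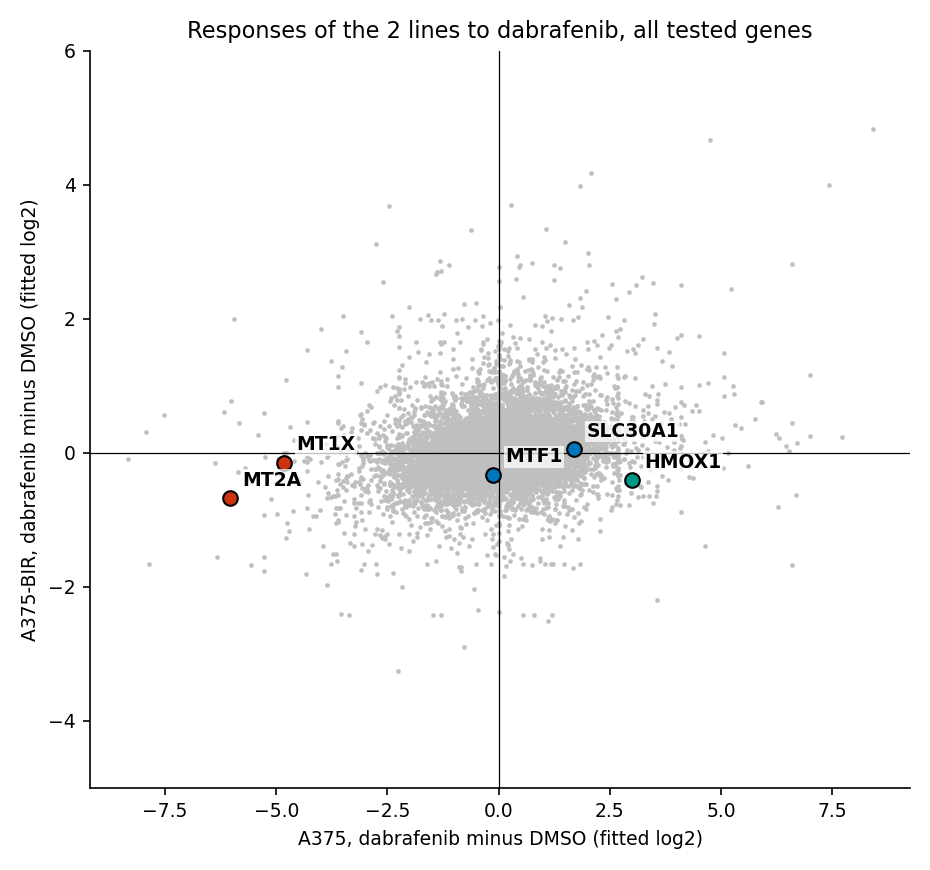
Fitted log2 change with dabrafenib in A375 (horizontal) and in A375-BIR (vertical) for the 10236 genes tested (grey), with MT2A and MT1X in red, MTF1 and SLC30A1 in blue and HMOX1 in green. MT2A lies at -6.05 and -0.67, and the A375 axis rests on 1 DMSO library.

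Between the lines under dabrafenib, MT2A was 35.5-fold higher in A375-BIR by pooled counts (95% counting interval 24.3 to 54.1), and each of the 3 A375-BIR libraries stood above each A375 library. The fitted difference was 5.10 on the log2 scale. It uses the A375 dabrafenib libraries that chose the set and carries no test. Between the lines in DMSO the fitted difference, A375-BIR minus A375, was -0.28, also with no test. Thus the lines stood close to each other in solvent and far apart with drug, by values that share the libraries of the rule.

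MT1X, an isoform gene read at far lower counts, was read in every library of the same 3 groups and in 1 of 3 libraries of A375 with dabrafenib. The A375 DMSO library held 89 reads, or 55.9 CPM, and the A375 dabrafenib libraries 2, 0 and 0 reads, or 4.12, 0 and 0 CPM. A count of 0 in those libraries allows up to 6.70 and 16.9 CPM. A375-BIR stood at 25.4, 14.1 and 38.9 CPM with DMSO (26.2 ± 12.4 CPM, SD, n = 3) and at 30.5, 17.5 and 10.4 CPM with dabrafenib (19.4 ± 10.2 CPM, SD, n = 3). The A375-BIR groups overlapped, and the A375 DMSO library lay above both.

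MT1X did not pass the test in the response of A375-BIR, at -0.15 ± 0.36 on the log2 scale (edgeR adjusted p = 0.913), and the ratio of DMSO to dabrafenib was 1.06 with a counting interval of 0.717 to 1.58. Its sign turned without DMSO replicate 3 (0.13) or without dabrafenib replicates 2 (0.0096) or 3 (0.059). Under dabrafenib MT1X was higher in A375-BIR than in A375, by 3.51 ± 0.80 on the log2 scale (edgeR adjusted p = 0.000534). It was higher in 3 of 3 A375-BIR libraries, and the pooled ratio was 12.7 with a counting interval of 3.33 to 108. This comparison called 42.7% of all genes tested and shares its A375 libraries with the rule, so the call adds no independent evidence. The fitted value fell to 2.81 without A375 dabrafenib replicate 2 and was 7.11 without replicate 1, which leaves A375 with no read.

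In DMSO MT1X was lower in A375-BIR than in the A375 library, by -1.18 ± 0.35 on the log2 scale (edgeR adjusted p = 0.00554). All 3 A375-BIR libraries were lower, and the A375 level was 2.30-fold that of A375-BIR by pooled counts (counting interval 1.66 to 3.21). The background was 51.8% of genes called, and stamp and line cannot be told apart here. This comparison also shares its A375 library with the rule, so the call adds no independent evidence. The call ended in DESeq2 (-1.13, adjusted p = 0.145), with the replicate block in edgeR (-0.87, adjusted p = 0.0713) and without A375-BIR DMSO replicate 2 (-0.86, edgeR adjusted p = 0.0599).

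MT1F and MT1A were read a few times each and were not tested. MT1F had 9 reads in A375 DMSO and 0 in the 3 A375 dabrafenib libraries. It had 2, 4 and 1 reads in A375-BIR with DMSO and 5, 2 and 1 with dabrafenib, or 2.47 ± 1.35 and 3.62 ± 1.09 CPM (SD, n = 3). Against a floor of 3 reads over the A375 dabrafenib group, the MT1F ratio was 2.09 for A375 DMSO and 1.47 for A375-BIR with dabrafenib. These ratios leave out the counting error of the few MT1F reads in the higher group, so they are no bounds. The 2 A375-BIR groups overlapped, with a DMSO to dabrafenib ratio of 0.636 and a counting interval of 0.196 to 2.01.

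MT1A was read mostly in the A375 DMSO library, the deepest of the 10, and not in A375-BIR. It had 12 reads, or 7.54 CPM, in A375 DMSO, and 0, 1 and 0 reads in A375 with dabrafenib, while all 6 A375-BIR libraries had 0. The A375 DMSO level was 6.94-fold a floor of 3 reads over A375-BIR with DMSO, a ratio that leaves out the counting error of the 12 reads and is no bound. The A375 DMSO level was 8.37-fold that of A375 with dabrafenib (counting interval 1.24 to 358). MT1E, MT1G and MT1M had 0 reads in all 10 libraries, so that the level of each could be up to 1.09 CPM in the DMSO group and 1.49 CPM in the dabrafenib group of A375-BIR, and up to 1.88 and 2.70 CPM in those of A375. Of 14 further family genes and pseudogenes looked for, 6 were listed (MT3, MT4, MT1B, MT1H, MT1HL1 and MT1IP) and all had 0 reads. At these depths the lack of reads is not absence.

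MT2A carried most of the family's reads in every library. It supplied 97.9%, 98.6% and 97.5% of the reads of the 7 genes in A375-BIR with DMSO and 96.0%, 98.0% and 98.1% with dabrafenib. In A375 DMSO the share was 96.0% (95% Clopper-Pearson interval 95.2% to 96.7%). In A375 with dabrafenib it was 83.3%, 90.9% and 100%, out of 12, 11 and 7 reads, with intervals that start at 51.6%, 58.7% and 59.0%. Those intervals are too wide to show a change of make-up. Such intervals and the floors cover counting error only.

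Near-identical family members can lose reads, because reads with more than 1 alignment are not counted here. The last 300 bases of transcript 201 of each gene were cut into 201 windows of 100 bases, the read length, and compared with the transcripts of 21 family genes and pseudogenes in GENCODE 29. No window was identical elsewhere for any of the 7 genes. Within 2 mismatches of another family transcript lay 27.4% of MT2A windows, nearest to the pseudogene MT2P1, and 20.4% of MT1X windows, nearest to MT2A. The shares were 9.45% for MT1G and 8.46% for MT1E. For MT1A, MT1F and MT1M 0 windows came so close. MT1M windows had at least 3 mismatches to the nearest family transcript, with a median of 5, and the rest of the genome was not searched. Reads with more than 1 alignment made up 52.5% of the reads of A375 DMSO and 40.0% to 49.4% in the other 9 libraries, so this share was highest in the library with the highest MT2A level. What part of those reads came from metallothioneins was not tested.

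**Figure D3:**
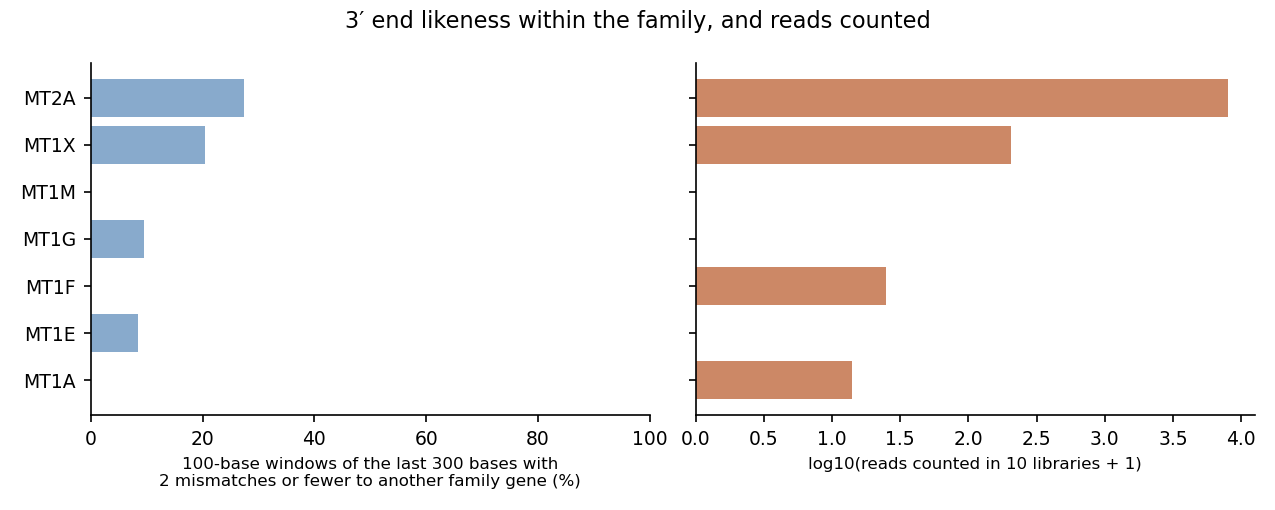
Left, the share of the 201 windows of 100 bases in the last 300 bases of each gene's transcript that lie within 2 mismatches of another metallothionein transcript. Right, log10 of the reads counted over 10 libraries plus 1. MT2A has the highest share, 27.4%, and the most reads, 8024, while MT1M has 0 in both.

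The genes whose profile over the 10 libraries lay nearest to that of MT2A were BCAT2, a mitochondrial enzyme of branched-chain amino acid breakdown, and SLCO4A1, an organic anion transporter gene. Next came CENPM of the centromere, OASL, an interferon-induced gene, and UCP2, a mitochondrial carrier gene. Likeness was the root-mean-square distance between centred log2(CPM + 1) profiles, over 9532 genes with a mean of at least 10 CPM. The distances of these 5 were 0.72, 0.72, 0.80, 0.84 and 0.89, against a median of 2.52 over all candidates. All were low in A375 with dabrafenib: BCAT2, CENPM, OASL and UCP2 had 0 reads there and SLCO4A1 0.687 ± 1.19 CPM (SD, n = 3). MT1X was the 25th nearest to MT2A, at 1.13. Nearest to MT1X were AURKB, a mitotic kinase gene, at 0.64, and POLD1, which encodes the catalytic subunit of DNA polymerase delta, at 0.74. These distances describe 10 libraries in 4 groups, share those libraries and their depth, and carry no test.

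Genes around the cluster were called in both directions or not at all, depending on the comparison. Of 22 listed genes within 500 kb of the cluster, 10 were tested. With dabrafenib in A375-BIR 0 of the 10 were called by edgeR, with 1 at an unadjusted p under 0.05 and 0 of 6 with a value in DESeq2, beside 2.46% of all genes. With dabrafenib in A375 2 were higher and 3 lower, beside 38.6% of all genes in either direction. The higher ones were NUDT21 (1.17), a factor of mRNA 3′ end processing, and HERPUD1 (1.42), of the endoplasmic reticulum stress response. The lower ones were OGFOD1 (-1.32), the nucleoporin gene NUP93 (-1.84) and NLRC5 (-3.61), a regulator of MHC class I genes. Under dabrafenib A375-BIR stood above A375 for NUP93 (1.30) and NLRC5 (2.81) and below it for GNAO1 (-1.56), a G protein subunit gene, 3 of 10 beside 42.7% of all genes. NLRC5 was no longer called without dabrafenib replicate 1 of A375-BIR (2.11) or of A375 (2.04). The median over the 10 was -0.094 in that comparison, against 0.043 for all genes tested.

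MTF1, the metal sensor, was not called in any of the 4 comparisons by edgeR or in the difference between the responses. It stood at 60.9 CPM in A375 DMSO and at 55.7, 55.8 and 56.4 CPM in A375 with dabrafenib. A375-BIR had 45.8, 47.4 and 62.6 CPM with DMSO and 42.8, 27.99 and 51.8 CPM with dabrafenib. The change in A375 was -0.12 ± 0.30 (adjusted p = 0.78) and that in A375-BIR -0.33 ± 0.24 (adjusted p = 0.599), both log2 by edgeR. The treated and DMSO libraries of A375-BIR overlapped. Under dabrafenib all 3 A375-BIR libraries lay below the A375 libraries, at -0.47 ± 0.28 (log2), which did not pass (edgeR adjusted p = 0.177). The measure is of MTF1 mRNA and says nothing of the activity of the protein.

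For metal sensing and metallothionein transcription 5 genes were tested, and 0 were called with dabrafenib in A375-BIR (edgeR; 0 at an unadjusted p under 0.05 and 0 by DESeq2; median -0.0023 beside 0.018 for all genes; 2.46% of all genes called). With dabrafenib in A375 NFE2L2, the oxidant-stress transcription factor gene, rose by 0.78 ± 0.24 (edgeR adjusted p = 0.00864), and the general factor gene USF2 fell by 0.76 on the log2 scale (edgeR adjusted p = 0.0172). These 2 of 5 stand beside 38.6% of all genes called. The USF2 call ended in DESeq2 (adjusted p = 0.0963) and the NFE2L2 call on thinned counts (0.34, edgeR adjusted p = 0.482). Under dabrafenib, NR3C1, the glucocorticoid receptor gene, was higher in A375-BIR (0.94 ± 0.19), as was HIF1A, the hypoxia factor gene (0.91 ± 0.19), and NFE2L2 was lower (-1.05 ± 0.18). In DMSO NR3C1 (1.38 ± 0.24) and HIF1A (1.75 ± 0.28) were again higher in A375-BIR and USF2 was lower (-1.11 ± 0.23). Each comparison of the lines thus called 3 of 5, beside 42.7% of all genes under dabrafenib and 51.8% in DMSO.

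SLC30A1, the zinc exporter of the plasma membrane and itself a known MTF1 target, rose in A375 with dabrafenib, while MT2A and MT1X stood lower there. It stood at 20.1 CPM in A375 DMSO and at 61.9, 75.9 and 50.8 CPM in A375 with dabrafenib. All 3 treated libraries lay above the DMSO library. The change was 1.69 ± 0.36 on the log2 scale (edgeR adjusted p = 0.000286), and 1.00 with no call on thinned counts (edgeR adjusted p = 0.297). A375-BIR had 49.996, 49.4 and 55.9 CPM with DMSO and 40.9, 71.7 and 51.8 CPM with dabrafenib, overlapping groups (0.051 ± 0.24, edgeR adjusted p = 0.96). The difference between the responses, A375-BIR minus A375, was -1.64 ± 0.43 (edgeR adjusted p = 0.00528), in a test that called 22.6% of all genes. It too ended on thinned counts (-0.82, edgeR adjusted p = 0.571).

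Of 7 tested SLC30 zinc exporter genes, 0 responded by the test in A375-BIR (edgeR; 1 at an unadjusted p under 0.05, 0 of 3 with a value in DESeq2; median 0.051; 2.46% of all genes called). In A375, SLC30A1 and SLC30A6 were higher and 0 lower, 2 of 7 beside 38.6% of all genes. SLC30A6 (1.55 ± 0.55) lost its call in DESeq2 (adjusted p = 0.119), with no filter, with only the 2 groups in the fit and without A375 dabrafenib replicate 1 (1.55) or 2 (1.36). Under dabrafenib SLC30A9 was higher in A375-BIR (0.98 ± 0.23) and SLC30A4 was lower (-1.52 ± 0.62). SLC30A3 was also higher, 5.53-fold against a floor of 3 reads over A375 with dabrafenib, which had none. That ratio leaves out the counting error of the A375-BIR reads and is no bound. The SLC30A4 call ended in DESeq2 (adjusted p = 0.107), and 3 of 7 stand beside 42.7% of all genes. In DMSO 3 were higher in A375-BIR (SLC30A1, SLC30A3 and SLC30A9) and SLC30A7 was lower (-0.64 ± 0.26), 4 of 7 beside 51.8% of all genes. There SLC30A1 went from 1.34 to 0.53 with no call on thinned counts (edgeR adjusted p = 0.615), and the SLC30A7 call ended in DESeq2 (adjusted p = 0.163).

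Of 11 tested SLC39 zinc importer genes, 0 responded by the test in A375-BIR (edgeR; 2 at an unadjusted p under 0.05, 0 of 7 with a value in DESeq2; median 0.22; 2.46% of all genes called). SLC39A14, a zinc and iron importer, was at 0.86 ± 0.28 (edgeR adjusted p = 0.0946) and passed without A375-BIR dabrafenib replicate 1 (1.16, edgeR adjusted p = 0.027). In the response of A375, SLC39A9 (1.43 ± 0.33) and SLC39A14 (1.19 ± 0.44) were higher, and SLC39A3, SLC39A6 and SLC39A11 were lower by edgeR, 5 of 11 beside 38.6% of all genes. DESeq2 called 1 of these, SLC39A9. Under dabrafenib SLC39A6 (0.80 ± 0.19) and SLC39A8 (2.01 ± 0.69) were higher in A375-BIR and SLC39A3, SLC39A4 and SLC39A7 lower, 5 of 11 beside 42.7% of all genes, and DESeq2 called 4 of them, not SLC39A3 (adjusted p = 0.103). In DMSO 2 were higher in A375-BIR and 5 lower, among them SLC39A3 at -2.74 ± 0.34, and 51.8% of all genes were called.

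Of 9 tested copper genes, 0 responded by the test in A375-BIR (edgeR; 1 at an unadjusted p under 0.05, 0 of 5 with a value in DESeq2; median -0.24; 2.46% of all genes called). In A375 4 were lower and 0 higher by edgeR, beside 38.6% of all genes in either direction, and DESeq2 called 2 of them, ATOX1 and COMMD1. ATOX1, the copper chaperone gene, stood at 1012 CPM in A375 DMSO, 47.0 ± 21.9 in A375 with dabrafenib, 113 ± 5.45 in A375-BIR with DMSO and 77.3 ± 27.2 with dabrafenib (SD, n = 3). Its change in A375 was -4.27 ± 0.26 (edgeR adjusted p = 2.02e-15). COMMD1 (-1.93 ± 0.45), SCO1 (-0.80 ± 0.27) and SOD1 (-0.70 ± 0.24) were the other lower ones. Unlike MT2A, ATOX1 was also far lower in A375-BIR than in A375 in DMSO, by -3.16 ± 0.22. Both that difference and the ATOX1 change in A375 rest on the lone A375 DMSO library, which has another stamp. Under dabrafenib COX11 alone was called between the lines (-1.39 ± 0.54), 1 of 9 beside 42.7% of all genes, and that call ended in DESeq2, with no filter, with the replicate block and without A375-BIR dabrafenib replicate 1 (-0.99) or 3 (-1.29) or A375 dabrafenib replicate 1 (-1.50).

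**Figure D4:**
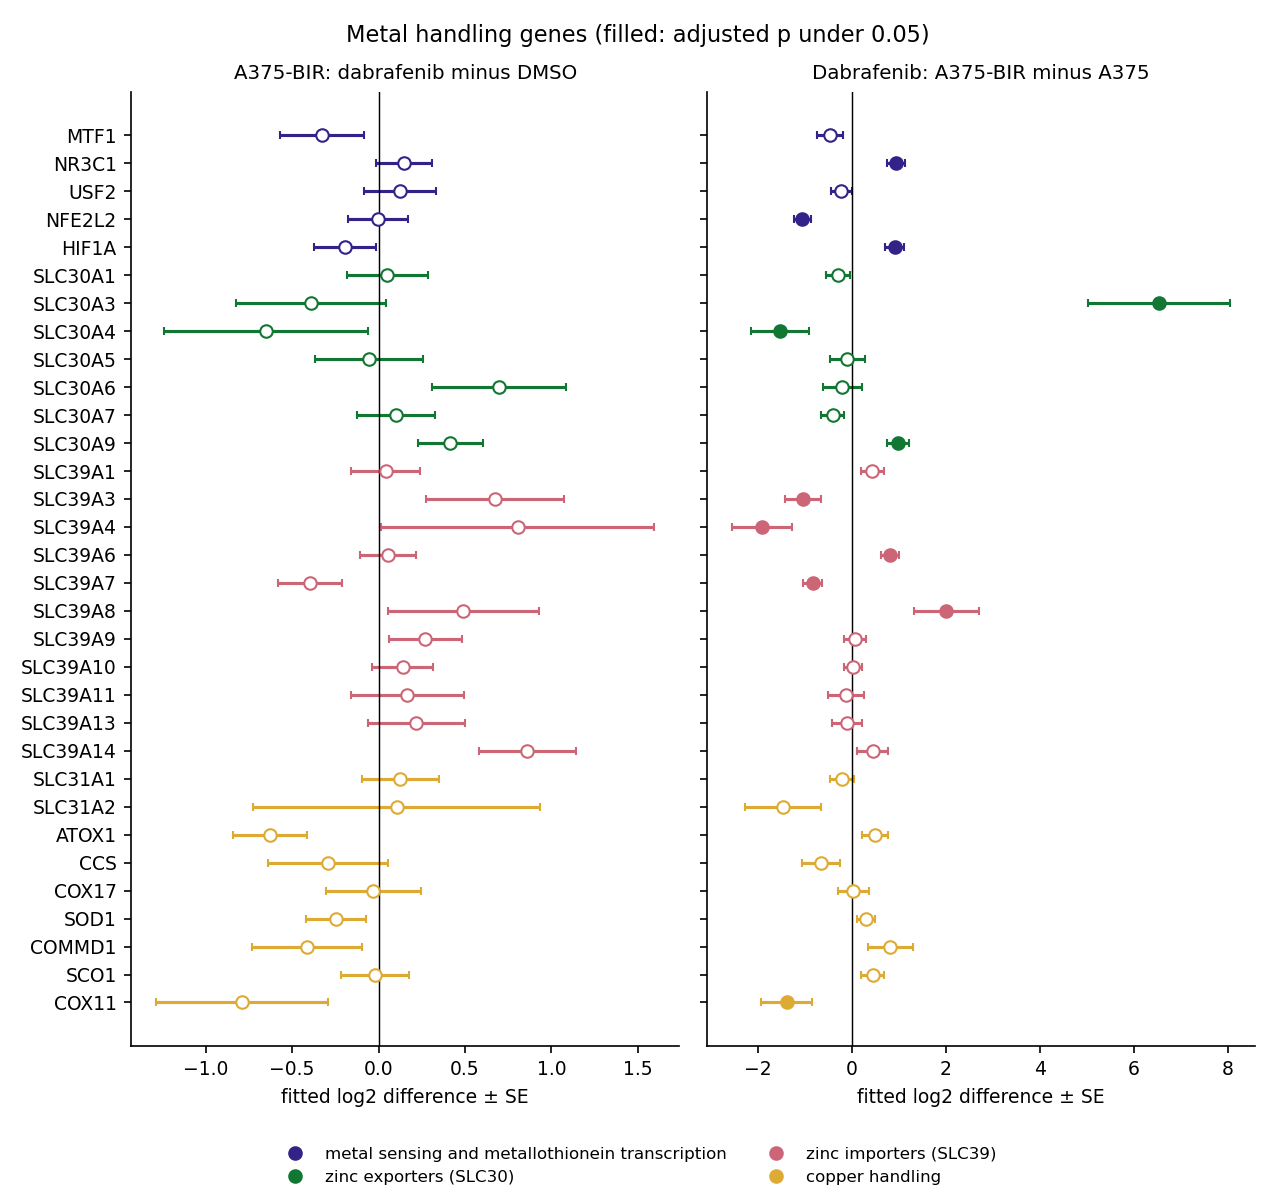
Fitted log2 differences with bars of 1 SE for the tested genes of metal sensing, zinc export, zinc import and copper handling, as A375-BIR with dabrafenib minus DMSO (left) and A375-BIR minus A375 under dabrafenib (right, on a wider scale). Filled points passed the test, of which the left panel has 0, and the point of SLC30A3 on the right is set against 0 reads and is no bound.

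HMOX1, the haem oxygenase gene induced by metals and oxidants, rose in A375 with dabrafenib. It stood at 72.2 CPM in A375 DMSO and at 592, 598 and 530.3 CPM with dabrafenib, and A375-BIR had 101, 80.6 and 79.6 CPM with DMSO and 72.4, 63.0 and 59.5 CPM with dabrafenib. The A375 dabrafenib libraries lay above all others. The change was 3.00 ± 0.26 in A375 (edgeR adjusted p = 2.49e-11) and -0.41 ± 0.20 in A375-BIR (edgeR adjusted p = 0.34), and the responses differed by -3.40 ± 0.32 (A375-BIR minus A375, edgeR adjusted p = 1.6e-09). Under dabrafenib, where the libraries compared share 1 stamp, A375-BIR stood below A375 by -3.12 ± 0.18 in the fit of all 10 libraries (edgeR adjusted p = 1.62e-16). With only libraries of the shared stamp in the fit, the difference was -3.15 (edgeR adjusted p = 5.06e-14).

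Among all 11 tested genes for other metal and oxidant stress, 7 were higher and 1 lower in the response of A375 (median 1.19 beside 0 for all genes), and 38.6% of all genes were called. DESeq2 called 6 of these 8, not DNAJB1 or GCLC, which encodes a subunit of the glutathione synthesis enzyme. They included SLC7A11, the cystine importer gene (1.51 ± 0.24), and TXNRD1, a thioredoxin reductase gene (1.24 ± 0.25). HSPA1A and HSPA1B, near-identical heat shock genes whose reads can be split or lost in counting, were also higher, and the chaperone gene DNAJB1 was lower. In A375-BIR 2 rose and 0 fell, beside 2.46% of all genes called: FTH1, the ferritin heavy chain gene (1.21 ± 0.18), and SLC7A11 (1.00 ± 0.19), whose call ended on thinned counts (0.67, edgeR adjusted p = 0.434). Under dabrafenib 2 were higher in A375-BIR and 6 lower, beside 42.7% of all genes, and in DMSO 3 were higher and 2 lower, beside 51.8%.

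Of 7 tested glucocorticoid-response genes, NFKBIA, the NF-kB inhibitor gene, was called in the response of A375-BIR (0.75 ± 0.19, edgeR adjusted p = 0.0194), beside 2.46% of all genes. It was not called by DESeq2 (0.78, adjusted p = 0.0624), with only the 2 groups in the fit (edgeR adjusted p = 0.0593), on thinned counts (edgeR adjusted p = 0.0583) or when DMSO replicate 1, 2 or 3 or dabrafenib replicate 2 was left out (0.49 to 0.78). In the response of A375 KLF9 (1.56 ± 0.25), NFKBIA (1.32 ± 0.28) and TSC22D3 (1.86 ± 0.56), all known glucocorticoid targets, were higher and 0 lower by edgeR, 3 of 7 beside 38.6% of all genes. DESeq2 called 2 of them, not TSC22D3 (adjusted p = 0.0753). Between the lines under dabrafenib 2 of 7 were lower in A375-BIR, KLF9 (-3.07 ± 0.19) and TSC22D3 (-2.28 ± 0.51), and 0 higher, beside 42.7% of all genes. The list's median there was 0.068, against 0.043 for all genes tested. In DMSO, with 1 A375 library, the list went both ways, with KLF9 lower in A375-BIR (-1.71 ± 0.22) and DUSP1 higher (1.71 ± 0.53).

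As a check of the drug, DUSP6, the ERK phosphatase gene read as MAPK output, stood at 138 CPM in A375 DMSO and between 20.1 and 33.0 CPM with dabrafenib. In A375-BIR it ranged from 174 to 189.6 CPM with DMSO and from 80.2 to 168 CPM with dabrafenib. Of 9 tested MAPK output genes, 7 were lower and 1 higher in the response of A375, beside 38.6% of all genes called, and DESeq2 called 6 of the 9. In A375-BIR 1 was lower, beside 2.46% of all genes: ETV4, an ERK-induced transcription factor gene (-0.86 ± 0.24). ETV4 was not called by DESeq2 (-0.86, adjusted p = 0.194), with only the 2 groups in the fit (edgeR adjusted p = 0.0875), on thinned counts (edgeR adjusted p = 0.174) or when DMSO replicate 1, 2 or 3 or dabrafenib replicate 2 was left out (-0.96 to -0.69). As a check of the cell label, the melanocyte lineage list of 10 genes summed to 1460 CPM in A375 DMSO, 2888 to 3405 CPM in A375 with dabrafenib, 211 to 224 CPM in A375-BIR with DMSO and 243 to 334 CPM with dabrafenib, with 1 to 3 of the 10 at 0 in a group. Its members did not move together in the response of A375. The fitted log2 changes were 2.07 for DCT and 1.03 for SOX10, but -0.71 for MITF and -1.27 for S100B. TYR, the melanin-synthesis enzyme gene, had 0 reads in both A375-BIR groups. Lists of other cell types summed to at most 49.2 CPM in any library, with 6 to 9 of 10 genes at 0 in a group, and 7 fibroblast genes to at most 30.9 CPM. The lines thus differed in lineage genes as well as in MT2A under dabrafenib, and the part of this in the metallothionein values was not tested.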

How the data were processed

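The 3′ tag libraries (QuantSeq FWD, 250 ng of total RNA, single-end reads of 100 bases, NovaSeq) were described per the labels' protocols. For each library the authors deposited raw counts of reads by gene, without normalization, and the submitters' processing notes name the build hg38. Not given in the sources used here are aligner, counter, annotation and strand setting. Each file ends with 5 lines of reads given to no gene, left out of all totals. Counts on genes were 20.4% to 31.1% of each file's total. Symbols were found for 32807 of 33694 identifiers.

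The 10 libraries with human identifiers were fitted together in edgeR 4.0.16 (R 4.3.3) with TMM scaling, filterByExpr (minimum count 10, 10236 genes kept), 1 coefficient per group and the quasi-likelihood test, which left 6 residual degrees of freedom. The design was written for 12 libraries and 2 were left out for their mouse identifiers, so the A375 DMSO library takes the spread pooled over the other groups. Calls were made at 0.05 after Benjamini-Hochberg adjustment across the tested genes. Standard errors are approximate (change over the square root of F). The p-values measure the spread between these libraries. DESeq2 1.42.0 was an alternative. Floors are 3 counts and intervals are exact 95%. Scripts were tested on simulated data.

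The genes and lists were chosen with earlier results of these data known. The 7 members were named with all their values, of each list at most the 4 genes with the smallest p per comparison plus MTF1, SLC30A1 and HMOX1, and the 5 nearest profiles to MT2A and 2 to MT1X. The neighbours named, and HSPA1A, DNAJB1, GCLC, SLC39A3 and SLC39A11 where the rule did not take them, were chosen after their values were seen. Not used here were protein sequences and promoters of the other members.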

Additional observations from a re-analysis of the deposited data

Results flagged for a closer look

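The difference between the responses of the lines was tested for MTF1, SLC30A1 and HMOX1, in a test that called 22.6% of all genes. MTF1 did not pass (-0.21, edgeR adjusted p = 0.745), and the other two did. For HMOX1 the response of A375-BIR minus that of A375 was -3.40 ± 0.32 (log2, SE, edgeR adjusted p = 1.6e-09), with 3 of 3 A375 dabrafenib libraries above the A375 DMSO library and 3 of 3 A375-BIR dabrafenib libraries below every A375-BIR DMSO library. For SLC30A1 it was -1.64 ± 0.43 (edgeR adjusted p = 0.00528), with 3 of 3 A375 dabrafenib libraries above the A375 DMSO library and overlapping A375-BIR groups, and this call ended on thinned counts (-0.82, edgeR adjusted p = 0.571). Both rest on the lone A375 DMSO library, for which stamp and group cannot be told apart. The HMOX1 change within A375-BIR did not pass by itself (-0.41, edgeR adjusted p = 0.34).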

How the results depend on the processing

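The fall of MT2A in A375-BIR kept its direction under all alternatives run. It lost its call with a mean count of at least 50 (-0.64), with only the 2 groups compared (-0.66) and with counts thinned to the smallest total (-0.63), and ran from -0.82 to -0.54 without 1 replicate. It kept the call with the other 5. These were DESeq2's size factors (-0.66), DESeq2 (-0.66), no filter (-0.70), the shared stamp alone (-0.68) and the replicate block (-0.68). Same-numbered libraries correlated between -0.122 and 0.0654 in A375-BIR and between 0.03 and 0.11 between the lines under dabrafenib. Differently numbered ones correlated between -0.11 and 0.14 and between -0.106 and 0.0732. With 3 libraries per group these values cannot decide whether the numbers pair them, and the main fit did not pair them.

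Genes called in the response of A375-BIR went from 252 to 106 in DESeq2, 137 with a mean count of at least 50, 125 with only the 2 groups and 87 thinned, 239 with the replicate block, and 106 to 558 without 1 replicate. Between the lines under dabrafenib 4374 became 1764 with the mean count and 2501 thinned, and in DMSO 5298 became 1895 under both. In the response of A375 3948 became 2485 in DESeq2, 1669 with the mean count and 1462 thinned. Thinning and the mean count leave fewer reads or genes to test. For the other changes the cause was not tested.

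The sign turned for MT1X in A375-BIR without 1 replicate (-0.74 to 0.13), for SLC30A1 in A375-BIR without 1 replicate (-0.21 to 0.30), and for MTF1 in the difference between the responses on thinned counts (0.29), none of them called. Alternatives for that difference were chosen after seeing the data. Depth limits MT1X, MT1F and MT1A, which had at most 89 reads in a library.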
